A study of Mus musculus with 12 samples.

Results

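Crispld1, Pamr1, Svep1, Frem1, Colec12, Tnxb, Postn and Angptl7 encode proteins with extracellular modules, and they were examined in RNA from isolated mouse glomeruli with and without Dach1 in podocytes. The 8 genes were taken by symbol, and all 8 of them were among the 13475 genes listed in both arms of the series. They had been grouped as secreted matrix genes that are higher without Dach1, with knockout results from these same libraries already known. Their differences between knockout and control are therefore given as a description, with calls but no p-value. Postn and Colec12 do not match that name. Postn went against it, since it was lower in knockouts than in controls at baseline and did not pass the test after STZ. Colec12 encodes a membrane-bound receptor, not a secreted protein.

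Modular extracellular proteins carry domains such as EGF-like, sushi, CUB, fibrinogen-like or fibronectin type III repeats, and bind cells, collagens or growth factors rather than forming the bulk fibres of the matrix. In the glomerulus the matrix is made by podocytes, endothelial cells and mesangial cells, and podocytes with their neighbours build the filtration barrier. Dach1 encodes dachshund-1, a nuclear regulator of transcription.

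Glomeruli came from C57BL/6 mice with a podocyte-specific DACH1 knockout that received streptozotocin (STZ), from control mice that received STZ, from untreated (baseline) knockout mice and from untreated controls, with 3 different mice in each of the 4 groups. STZ destroys insulin-producing beta cells. It was given by injection daily for 5 days at a dose of 50 µg/g, and glomeruli were taken 10 days later. The baseline mice were 10 weeks old, and an age was not given for the STZ mice in the sources used here. The driver of the podocyte-specific deletion and the alleles of the controls are also not given there, and the titles name the STZ controls hetN and the baseline controls Ctrl without explanation. Glomeruli were collected with perfused magnetic beads, so each library is bulk RNA of all glomerular cells, in which more cells of a type and more RNA per cell cannot be told apart.

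Library totals were 6.61e+07 to 7.86e+07 counts for STZ and 2.26e+07 to 2.49e+07 counts at baseline. Dach1 averaged 62.9 ± 6.20 CPM in STZ knockouts and 167.5 ± 19.6 CPM in STZ controls, and 54.4 ± 6.38 CPM in baseline knockouts and 151.8 ± 41.9 CPM in baseline controls (SD, n = 3 each). The log2 fold change of knockout over control was -1.41 (SE 0.14, adjusted p = 0.00942 in edgeR's quasi-likelihood test) after STZ and -1.48 (SE 0.23, adjusted p = 0.111) at baseline, where it did not pass. CPM are counts relative to the library total, scaled over all 12 libraries with TMM factors, while each fold change comes from the fit of its own comparison. The edgeR p-values set a difference between groups against the spread between these mice, as moderated over all genes. The podocyte and endothelial marker lists had the highest mean levels of the 9 cell type lists in every STZ library, while in baseline knockout replicate 3 the proximal tubule list (9.25 in log2 CPM) stood above the podocyte list (9.21). Knockout replicate 2 was the only STZ library with high Xist, at 145 CPM against 0.462 to 1.44 CPM in the other 5, so it was the only female of that arm. At baseline replicates 1 and 2 of both genotypes had high Xist and replicate 3 of both did not.

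Among the secreted members Svep1, Frem1 and Angptl7 share a chromosome but lie far apart (GRCm38.p6, RefSeq, 1-based). Crispld1 spans chromosome 1 from 17727029 to 17767235, Pamr1 chromosome 2 from 102549939 to 102643041, and Postn chromosome 3 from 54359267 to 54391041. On chromosome 4, Svep1 runs from 58042796 to 58206596, Frem1 from 82897920 to 83052506 and Angptl7 from 148495181 to 148500462. Tnxb lies on chromosome 17 from 34660453 to 34719815. In the GENCODE M21 annotation Svep1 has 47 merged exons with 16117 bases and a longest coding length of 10701 bases, Tnxb 12209 and 12018 bases, and Angptl7, the shortest gene, 2157 and 1011 bases. Angptl7 sits whole inside Mtor, on the opposite strand, with 0 of its exon bases in Mtor exons. Crispld1 shares 548 exon bases with the non-coding gene Gm16070. Strand handling is not given in the sources used here, so reads of such pairs cannot be told apart.

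A RefSeq promoter window, from 250 bases before to 50 after a start, was found for 5 of the 8 genes (Svep1, Frem1, Angptl7, Tnxb and Postn; 7 windows). Shown are the 100 bases before the start of Tnxb and Angptl7, which were called higher in STZ knockouts, beside those of Postn, which was not. The Tnxb start lies inside the gene as annotated, downstream of its first base at 34660453. Each is written 5′ to 3′ on the strand of the gene, from GRCm38.p6, and capitals mark a searched motif. They are Tnxb (chr17:34670435-34670534, plus strand), Angptl7 (chr4:148500463-148500562, minus strand) and Postn (chr3:54361007-54361106, plus strand, the second of its 2 starts).
Tnxb: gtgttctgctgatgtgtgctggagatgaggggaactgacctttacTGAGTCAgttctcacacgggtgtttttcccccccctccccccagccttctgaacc
Angptl7: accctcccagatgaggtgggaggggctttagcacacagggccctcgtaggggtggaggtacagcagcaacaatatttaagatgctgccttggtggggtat
Postn: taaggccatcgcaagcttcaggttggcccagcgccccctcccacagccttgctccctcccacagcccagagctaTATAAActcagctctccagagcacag
The motifs searched on both strands were the TATA box (TATAAA), the AP-1 site (TGACTCA), the CCAAT box (CCAAT), the GC box (GGGCGG) and a forkhead site (TGTTTAC), and no matches of different motifs overlapped in the member windows. Postn had a TATA box at -26 bases from its start, and Svep1 had the same letters on the opposite strand at -42, a motif in 13.6% of all 32851 windows. All 250 bases before the Svep1 start lie in exons of Svep1 itself in GENCODE M21, so its match is exonic there. The same holds for 173 of the bases before a Frem1 start. Tnxb had an AP-1 match on the opposite strand at -55 bases, which reads TGAGTCA on its own strand, a motif in 5.20% of all windows. Frem1 and Postn held CCAAT matches after a start, against 37.4% of windows with one. No member window held the GC box (35.7% of all windows) or the forkhead letters (3.65%). So the 5 genes had no searched motif in common in these windows.

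After STZ 7 of the 8 genes were called higher in knockouts than in controls, at a Benjamini-Hochberg adjusted p under 0.05 in edgeR's quasi-likelihood test over all genes. Of all 16291 genes tested, 0.841% were called higher, 0.233% lower and 1.07% in either direction. Crispld1, Pamr1, Svep1, Frem1, Colec12, Tnxb and Angptl7 were called, and Postn was not. At baseline Frem1 alone was called, and 0.171% of 13475 genes were called higher there, 0.0594% lower and 0.230% in either direction. The members' median log2 fold change was 2.57 after STZ and 1.65 at baseline, against -0.02 and 0.01 over all genes. Since the genes were chosen on this contrast, these counts carry no weight as evidence.

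**Figure D1:**
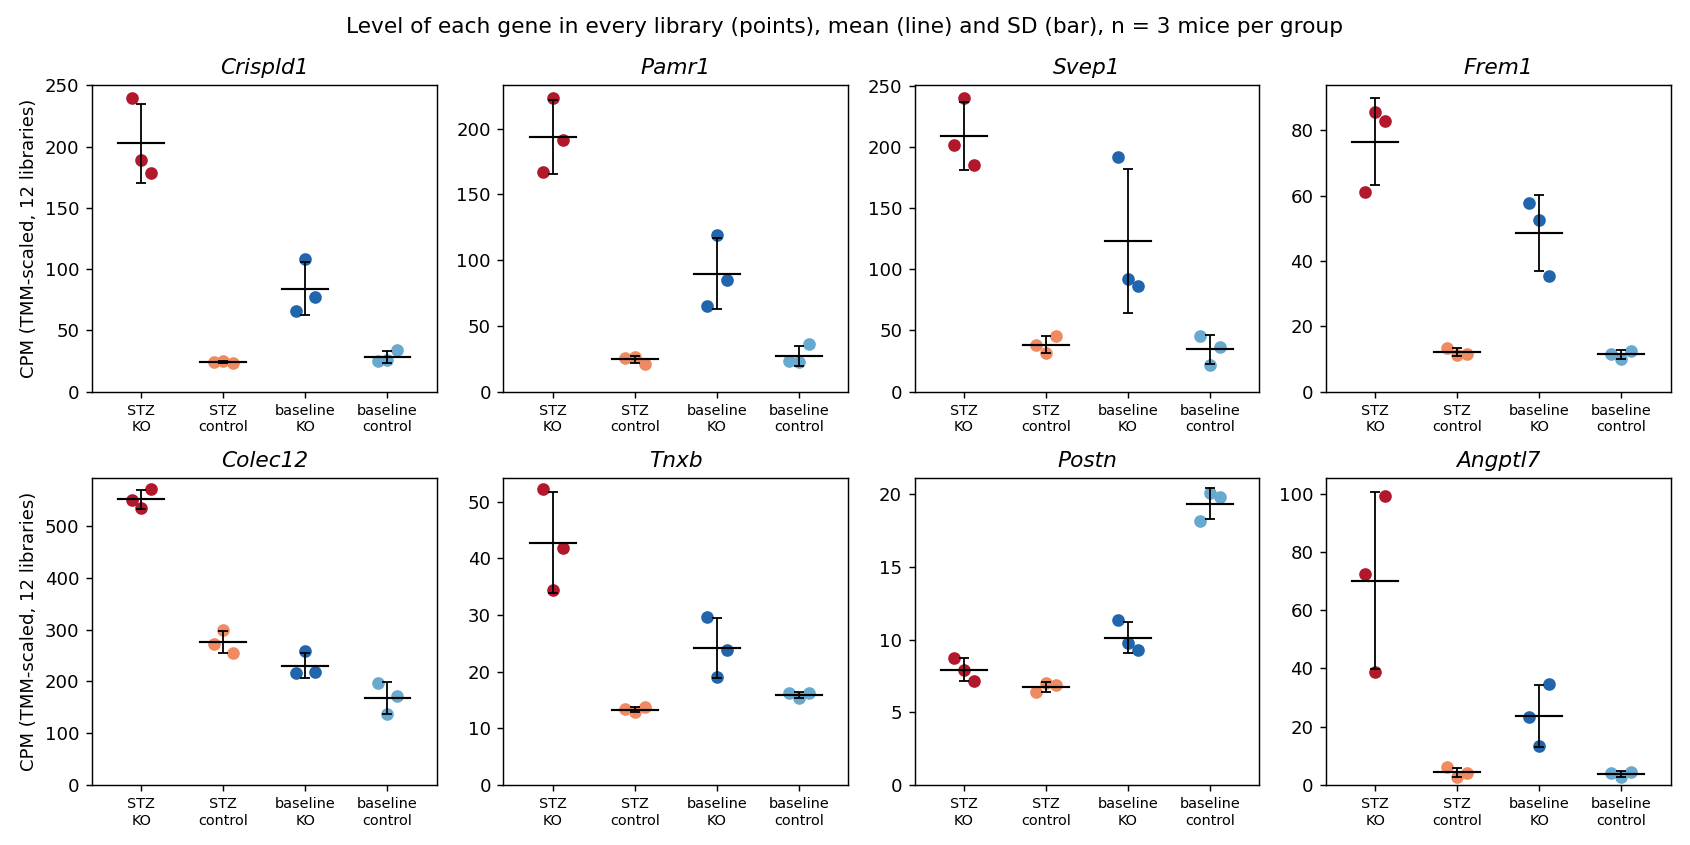
Level of each gene (CPM, TMM-scaled over 12 libraries, linear axis from 0) by group, with a point per library, the mean as a line and the SD as a bar (n = 3). Of the 8 genes, 7 have their highest mean in the STZ knockouts, while Postn has it in the baseline controls at 19.4 CPM.

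Crispld1 encodes a secreted protein of the CAP superfamily with LCCL domains. It had 239.6, 189.4 and 178.9 CPM in STZ knockouts, against 24.1, 25.2 and 23.3 CPM in STZ controls. At baseline it had 66.1, 108 and 77.5 CPM in knockouts, against 25.0, 25.5 and 33.8 CPM in controls. Knockout and control libraries did not overlap in either arm, and the control libraries of both arms lay between 23.3 and 33.8 CPM. The log2 fold change of knockout over control was 3.07 (SE 0.14), an 8.38-fold difference, after STZ and 1.58 (SE 0.22), a 2.99-fold difference, at baseline.

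Pamr1 encodes a secreted protein with CUB, EGF-like and sushi domains and a peptidase-like domain. It had 167.3, 223.1 and 191.2 CPM in STZ knockouts, against 25.8, 26.4 and 21.2 CPM in STZ controls. At baseline it had 65.3, 119.3 and 84.7 CPM in knockouts, against 22.97, 22.8 and 35.8 CPM in controls. The groups again did not overlap, and baseline knockout replicate 2 was the highest of its group for both Pamr1 and Crispld1. Log2 fold changes were 2.99 (SE 0.17) after STZ and 1.72 (SE 0.29) at baseline.

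Svep1 encodes polydom, a very large protein of sushi, EGF-like, von Willebrand A and pentraxin domains that binds an integrin and is needed for lymphatic vessels in mice. It had 201.2, 239.8 and 185.3 CPM in STZ knockouts, against 38.2, 31.3 and 45.02 CPM in STZ controls. In the baseline knockouts it had 191.4, 92.0 and 86.5 CPM, against 45.5, 22.0 and 36.0 CPM in the baseline controls. Replicate 1 of the baseline knockouts stood at the level of the STZ knockouts, and the other 2 far lower, so the spread in that group was wide (SD 59.0 CPM around a mean of 123.3). Log2 fold changes were 2.46 (SE 0.18) after STZ and 1.84 (SE 0.41) at baseline.

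Frem1 encodes a FRAS1-related basement membrane protein that holds epithelia to the tissue beneath. It had 61.1, 85.5 and 82.9 CPM in STZ knockouts, against 13.4, 11.1 and 11.6 CPM in STZ controls. At baseline knockouts had 57.7, 52.4 and 35.4 CPM, against 11.5, 10.0 and 12.5 CPM in controls. All 6 control libraries lay within a narrow band and every knockout library lay well above it. Log2 fold changes were 2.68 (SE 0.18) after STZ and 2.10 (SE 0.21) at baseline, where it was the 1 member called.

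Tnxb encodes tenascin-X, a large glycoprotein of EGF-like and fibronectin type III repeats that associates with collagen fibrils and whose loss in humans causes a form of Ehlers-Danlos syndrome. It had 52.2, 34.4 and 41.8 CPM in STZ knockouts, against 13.4, 12.8 and 13.7 CPM in STZ controls. At baseline it had 29.7, 19.1 and 23.8 CPM in knockouts, against 16.2, 15.3 and 16.1 CPM in controls. The baseline groups were close, with the lowest knockout library just above the highest control. Log2 fold changes were 1.69 (SE 0.16) after STZ and 0.61 (SE 0.17) at baseline.

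Angptl7 encodes a secreted angiopoietin-like protein with a fibrinogen-like domain, known from the outflow tissue of the human eye. It had 72.5, 38.8 and 99.2 CPM in STZ knockouts, against 6.07, 2.74 and 3.90 CPM in STZ controls. At baseline it had 23.1, 13.3 and 34.7 CPM in knockouts, against 4.07, 2.66 and 4.43 CPM in controls. In both arms the highest knockout library (replicate 3) was male by Xist and the lowest (replicate 2) female. These are different mice, and replicate numbers do not link the arms. The STZ controls, all male by Xist, ran from 2.74 to 6.07 CPM. Angptl7 had the largest knockout effect of the 8 genes in both arms, with log2 fold changes of 4.05 (SE 0.45) after STZ and 2.67 (SE 0.40) at baseline. Mtor, inside which it lies, averaged 157.0 ± 5.71 CPM in STZ knockouts and 140.4 ± 3.44 CPM in STZ controls (SD, n = 3 each), a log2 fold change of 0.17 (SE 0.10).

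Colec12, on chromosome 18, encodes a collectin anchored in the plasma membrane, a scavenger receptor with a collagen-like stalk and a C-type lectin domain. It had 550.3, 534.8 and 571.5 CPM in STZ knockouts, against 273.2, 299.9 and 255.8 CPM in STZ controls. At baseline it had 216.2, 258.0 and 217.4 CPM in knockouts, against 196.7, 136.0 and 171.0 CPM in controls. The knockout difference was the smallest of the 7 called genes, with log2 fold changes of 1.00 (SE 0.12), which is 2.00-fold, after STZ and 0.46 (SE 0.16) at baseline. The call after STZ was lost without any 1 of the 6 libraries other than control replicate 3.

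Postn encodes periostin, a matricellular protein of fasciclin domains that binds integrins and collagen. It had 8.72, 7.92 and 7.14 CPM in STZ knockouts, against 6.37, 7.02 and 6.85 CPM in STZ controls. At baseline it had 11.3, 9.73 and 9.29 CPM in knockouts, against 18.2, 20.1 and 19.8 CPM in controls. All 3 baseline knockouts were thus lower than all 3 baseline controls, whereas after STZ the knockouts stood slightly above the controls. Log2 fold changes were 0.24 (SE 0.14) after STZ and -0.94 (SE 0.12) at baseline, and neither was called in edgeR's quasi-likelihood test over all genes.

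**Figure D2:**
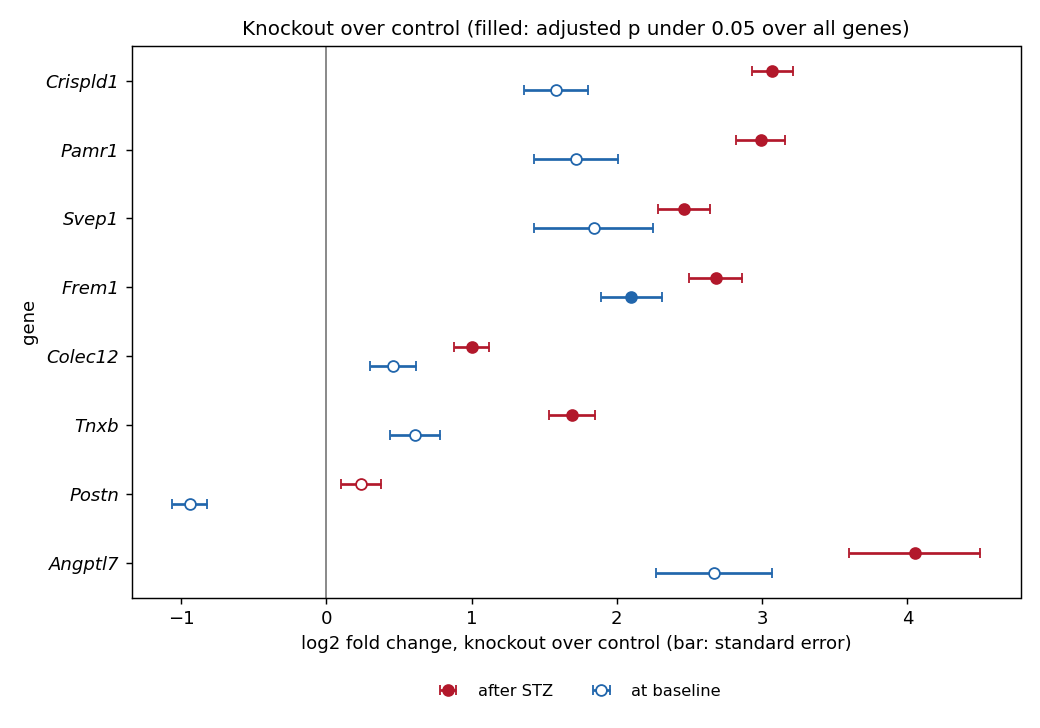
Log2 fold change of knockout over control (x axis; bar, standard error) for each gene (y axis), after STZ (red, upper) and at baseline (blue, lower), with filled points for genes called over all genes. After STZ 7 points are filled, at baseline only that of Frem1, and Postn at baseline (-0.94) is the 1 negative value.

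Knockout libraries lay wholly above control libraries for all 8 genes after STZ, where 8.62% of all genes did so and 6.26% lay wholly below, and for 7 genes at baseline, where 4.98% did. Postn lay wholly below at baseline, where 6.86% of genes did. The calls after STZ depended on 1 library for some genes. The number called was 4 of 8 without STZ control replicate 2 (0.246% of all genes), the library whose loss cost most. It was 5 or 6 without any other, where 49 to 109 genes were called over all genes tested. With sex as a term it was 6 of 8 (0.387% of all genes), with Colec12 not called. Knockout replicate 2 was the only female of that arm, so this fit gave the log2 fold changes of leaving it out. Sex and that library cannot be told apart there. Crispld1, Pamr1, Svep1 and Frem1 were called whichever library was left out. At baseline the number called was 1 with all libraries and 3 without knockout replicate 1 (Crispld1, Frem1 and Postn, which was lower, with 0.378% of all genes called). It was 1 without knockout replicate 3, where 6 genes were called over all genes tested. Without knockout replicate 2 or any 1 control it was 0, and 4 to 10 genes were called over all genes tested. With all 12 libraries in one edgeR fit, or with DESeq2, 6 of the 8 were called at baseline, 5 higher and Postn lower, with Colec12 and Tnxb not called. Of all genes 0.586% were called in the one fit and 1.64% with DESeq2. With sex as a term none of the 8 was called at baseline (0.0742% of all genes), and with the unexplained S10 or S11 mark of the baseline titles as a term Crispld1 and Frem1 were (0.445%). Both terms were added after the data were seen, and the direction of all 8 genes stayed the same under each.

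The STZ libraries differ from the baseline libraries in depth, in the genes their tables list in the naming of their controls and in sex, so STZ and these differences cannot be told apart in the following comparison. By Xist, 1 of 3 STZ knockouts and 2 of 3 baseline knockouts were female, as were 0 of 3 STZ controls and 2 of 3 baseline controls. The comparison shares its libraries with the knockout comparisons on which the members were chosen. Its values, p-values included, are therefore not independent of that choice. In knockouts, 7 of the 8 genes had positive log2 fold changes of STZ over baseline, with a median of 0.94 against -0.02 over all genes. Colec12 was the 1 member called, at 1.24 (SE 0.12, adjusted p = 0.0252 in edgeR's quasi-likelihood test), where 0.111% of 13473 genes were called higher, 0.0668% lower and 0.178% in either direction. All 3 STZ knockouts lay above all 3 baseline knockouts for Crispld1, Pamr1, Frem1, Colec12, Tnxb and Angptl7, as for 11.2% of all genes, and below for Postn, as for 10.4%. Angptl7 at 1.54 (SE 0.45, adjusted p = 0.206), Crispld1 at 1.25 (SE 0.20, adjusted p = 0.0954) and Pamr1 at 1.10 (SE 0.23, adjusted p = 0.128) did not pass. Svep1 overlapped between STZ and baseline knockouts (0.72, SE 0.34, adjusted p = 0.397). The Colec12 call was lost without any 1 of the 6 libraries (adjusted p 0.0569 to 0.189), and with sex as a term (1.26, adjusted p = 0.0893), where 0.0668% of all genes were called.

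In controls none of the 6 secreted genes that were higher in knockouts was called between STZ and baseline. Crispld1 had a log2 fold change of -0.24 (SE 0.15), Pamr1 -0.18 (SE 0.21), Svep1 0.11 (SE 0.27), Frem1 0.05 (SE 0.15), Tnxb -0.29 (SE 0.11) and Angptl7 0.16 (SE 0.35), with adjusted p from 0.382 to 0.916 in edgeR's quasi-likelihood test. The signs of Pamr1, Svep1, Frem1 and Angptl7 turned when some single libraries were left out, and those of Frem1 and Angptl7 with sex as a term. All 3 STZ controls lay above all 3 baseline controls for Colec12 (0.69, SE 0.16, adjusted p = 0.216), as for 9.49% of all genes, and below them for Tnxb and Postn, as for 10.3%. Postn was the 1 member called and fell in STZ controls to 0.341 of its level in baseline controls, by -1.55 in log2 terms (SE 0.12, adjusted p = 0.00831). Of all genes 0.186% were called lower, 0.0445% higher and 0.230% in either direction. The Postn call was lost without STZ control replicate 2 or any 1 baseline control (adjusted p up to 0.0606), while the log2 fold change kept between -1.59 and -1.52. It was also lost with sex as a term (-1.58, adjusted p = 0.146), where 0.0445% of all genes were called.

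**Figure D3:**
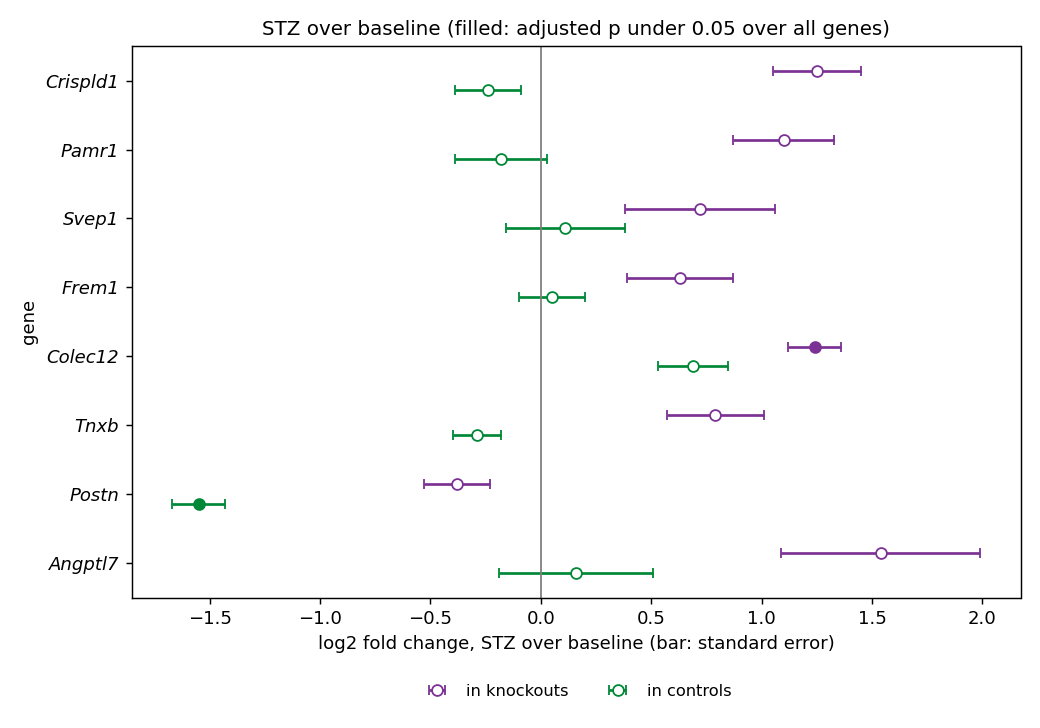
Log2 fold change of STZ over baseline (x axis; bar, standard error) for each gene (y axis), in knockouts (purple, upper) and in controls (green, lower), with filled points for genes called over all genes. Colec12 in knockouts (1.24) and Postn in controls (-1.55) are the filled points, and the 6 secreted genes other than Postn lie near 0 in controls.

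The difference between the 2 knockout effects, after STZ minus at baseline, was positive for all 8 genes, with a median of 1.12 against -0.03 over all genes. None passed over all 13475 genes in edgeR's quasi-likelihood test, where 0.00742% of genes were called, although 6 had an unadjusted p under 0.05, as did 3.67% of all genes. The members were chosen on the knockout effects that make up this difference, so its values are not independent of that choice. The difference was 1.49 for Crispld1 (SE 0.27, adjusted p = 0.256), 1.17 for Postn (SE 0.17, adjusted p = 0.0974), 1.26 for Pamr1 (SE 0.33, adjusted p = 0.938) and 1.08 for Tnxb (SE 0.25, adjusted p = 0.632). Angptl7 was at 1.38 with the widest standard error of the 8 (SE 0.61, adjusted p = 0.975). For Frem1 (0.58, SE 0.27) and Svep1 (0.61, SE 0.46) it was smallest beside Colec12 (0.54, SE 0.19). DESeq2 called 3 of the 8, namely Crispld1 (adjusted p = 0.000195), Postn (6.22e-07) and Tnxb (0.0413), where it called 0.230% of all genes. Of all genes 0.00% were called with a lower effect after STZ.

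Per kilobase of exon, Colec12 was the most abundant of the 8 in every group, at 63.3 ± 2.12 CPM per kb in STZ knockouts and 31.7 ± 2.55 in STZ controls (SD, n = 3 each). In STZ knockouts Crispld1 followed at 44.9 ± 7.19, then Angptl7 at 32.5 ± 14.05 and Pamr1 at 32.1 ± 4.63 CPM per kb, and these neighbours overlapped between libraries. Svep1 (12.9 ± 1.74), Frem1 (5.47 ± 0.958), Tnxb (3.50 ± 0.731) and Postn (0.911 ± 0.0906 CPM per kb) came next, each without overlap with the one before. In STZ controls the order after Colec12 was Crispld1 (5.36 ± 0.205), Pamr1 (4.05 ± 0.472), Svep1 (2.37 ± 0.426), Angptl7 (1.96 ± 0.783), Tnxb (1.09 ± 0.0344), Frem1 (0.860 ± 0.0875) and Postn (0.775 ± 0.0385 CPM per kb). There Svep1 overlapped with Angptl7, and Frem1 with Postn. Angptl7 thus had rank 3 in STZ knockouts and rank 5 in STZ controls. In baseline knockouts Postn was the lowest of the 8, at 1.16 ± 0.124 CPM per kb, and in baseline controls it had rank 4, at 2.23 ± 0.121 CPM per kb, overlapping with Svep1.

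**Figure D4:**
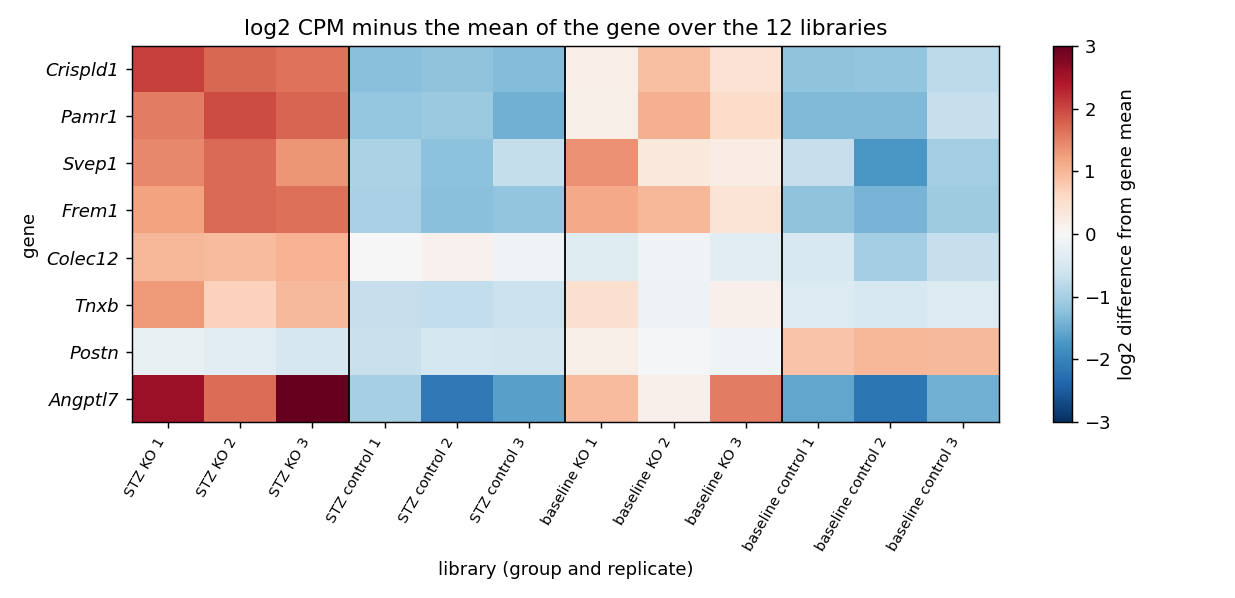
Log2 CPM of each gene (rows) minus its mean over the 12 libraries, by library (columns, grouped by arm and genotype); red is above and blue below the mean of the gene. Crispld1 and Pamr1 run almost in parallel, Angptl7 has the widest range, and Postn is high in the baseline controls.

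Likeness between profiles was measured as the root mean square difference of gene-centred log2 CPM over the 12 libraries, where 0 is an identical course. Crispld1 and Pamr1 were the closest pair of members, at 0.19, although they lie on different chromosomes. Svep1 and Frem1 differed by 0.33 and Pamr1 and Frem1 by 0.34, while Postn differed from every other member by at least 0.97. Among 12881 other genes, the nearest to Crispld1 were Ccbe1 and Mboat2, both at 0.36, and the nearest to Pamr1 were Lpcat4 (0.36) and Ccbe1 (0.40). Ccbe1 encodes a secreted protein of collagen and EGF-like domains. It had log2 fold changes of 2.46 after STZ and 1.25 at baseline for knockout over control. Lpcat4, a lysophospholipid acyltransferase gene, and Sorcs1, a sorting receptor gene, were nearest to Frem1 (0.24 and 0.25), and Sorcs1 and Ccbe1 to Svep1 (0.34 and 0.41).

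Tmem54 and Cercam were nearest to Colec12 (both 0.16), Cited2 and Jakmip2 to Tnxb (both 0.19), and Tmem182 and Spef2 to Postn (0.27 and 0.28). Nearest to Angptl7 were the fibronectin gene Fn1 (0.61) and Txlnb (0.62). The distance grows with the range of a gene, and Angptl7 had the widest profile. Its SD over the 12 libraries was 1.81 in log2 CPM, against 0.65 for Colec12 and 0.59 for Postn. Distances of different members are thus not on one scale. These distances are a description, and all 12 libraries share the 2 arms and genotypes.

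Relatives of the 8 genes were set beside them to see whether families moved as a whole. Of all 16291 genes tested after STZ, 0.841% were called higher in knockouts and 0.233% lower. Of the 8 tested CAP superfamily genes related to Crispld1, none was called higher in STZ knockouts than in STZ controls and R3hdml was lower, at 1.05, 0.634 and 0.743 CPM in STZ knockouts against 8.67, 4.02 and 4.02 CPM in STZ controls (log2 fold change -2.78, SE 0.39, adjusted p = 0.0306 in edgeR's quasi-likelihood test). Crispld2, the closest relative by name, had a log2 fold change of -0.03 (SE 0.24) after STZ. The list medians were -0.04 after STZ and -0.35 at baseline.

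In the FRAS1 and FREM family with its partners, none of 7 tested genes was called in either arm, with medians of 0.09 after STZ and -0.01 at baseline. Fras1 and Frem2, which form a complex with Frem1 in basement membranes, had log2 fold changes of -0.15 (SE 0.19) and 0.09 (SE 0.33) after STZ. Frem3, named after its values were seen, averaged 12.3 ± 6.41 CPM in STZ knockouts and 2.80 ± 2.26 CPM in STZ controls, and 6.01 ± 1.22 CPM in baseline knockouts and 1.39 ± 0.316 CPM in baseline controls (SD, n = 3 each). Its log2 fold changes of 2.15 (SE 0.62, adjusted p = 0.284) and 2.11 (SE 0.26, adjusted p = 0.0539) did not pass edgeR's quasi-likelihood test. Npnt, the nephronectin gene, whose product is an integrin ligand of basement membranes, was at 0.86 (SE 0.16, adjusted p = 0.0776) after STZ.

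Of the 3 tenascin relatives of Tnxb tested after STZ none was called, and Tnc was at 71.7 ± 6.40 CPM in STZ knockouts and 40.6 ± 6.58 CPM in STZ controls (SD, n = 3 each; log2 fold change 0.83, SE 0.16, adjusted p = 0.0815 in edgeR's quasi-likelihood test). Among 5 genes around periostin, 1 was called higher in STZ knockouts, Lox, which encodes the lysyl oxidase that crosslinks collagen (15.6, 13.9 and 13.2 CPM in STZ knockouts against 6.71, 5.78 and 4.78 CPM in STZ controls; log2 fold change 1.31, SE 0.17, adjusted p = 0.0247). Over all genes 0.841% were called higher after STZ. Tgfbi, the nearest relative of Postn, was at -0.37 (SE 0.41). None of 10 angiopoietin-like and angiopoietin genes, 7 collectin and scavenger receptor genes, or 20 sushi and CUB genes tested after STZ was called, with list medians of 0.00, 0.17 and 0.02. At baseline none of the genes of the 9 family and matrix lists was called, with list medians between -0.35 and 0.08 against 0.01 over all genes.

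Among 12 integrin genes for receptors of such proteins, Itga11, the gene of a collagen-binding chain, was the 1 called, with 72.4, 69.8 and 99.7 CPM in STZ knockouts against 3.94, 3.91 and 3.95 CPM in STZ controls (log2 fold change 4.36, SE 0.18, adjusted p = 0.000294 in edgeR's quasi-likelihood test). Itga9, which encodes the integrin chain that binds polydom, was at -0.08 (SE 0.39), and the list median was 0.18. Of 44 matricellular genes tested between STZ knockouts and STZ controls, 2 were called higher in the knockouts and 1 lower, with a median of 0.23 against -0.02 over all genes. Over all genes 0.841% were called higher in this comparison and 0.233% lower. Aebp1, a collagen-binding protein gene, was at 1.46 (SE 0.18, adjusted p = 0.0204) and Mfap2, a microfibril gene, at 1.21 (SE 0.18, adjusted p = 0.0339), while Fgl2, a fibrinogen-like protein gene, was at -1.84 (SE 0.15, adjusted p = 0.00388).

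Several of the 8 genes are known from fibroblasts, so markers of other cells were set beside them. Of 12 fibroblast markers 9 were listed in both arms, the other 3 being Lum, Dpt and Fap, and none of the 10 tested after STZ or the 9 tested at baseline was called between genotypes. Their mean log2 CPM was 5.85, 5.94 and 5.70 in STZ knockouts against 5.65, 5.61 and 5.31 in STZ controls, a difference of 0.31 (exact two-sided permutation p = 0.1, the smallest that 3 against 3 allows). At baseline it was 5.52, 5.81 and 5.73 in knockouts against 5.59, 6.01 and 5.88 in controls, a difference of -0.14 (exact permutation p = 0.4). Summed over the 9 genes the level was 935 to 1030 CPM in STZ knockouts against 837 to 1160 CPM in STZ controls. Among the 10 markers tested after STZ, log2 fold changes ran from -0.23 for Pdgfra to 0.84 for Col3a1. Col1a1 (0.76, SE 0.16), Col3a1 (SE 0.22), Col14a1 (0.69, SE 0.24) and Dcn (0.75, SE 0.31) had unadjusted p-values from 0.00235 to 0.0471 but did not pass in edgeR's quasi-likelihood test (adjusted p from 0.117 to 0.54). Col1a2 (-0.16, SE 0.14), Ly6a (-0.17, SE 0.23) and Fap (-0.14, SE 0.16) went the other way, as did Pdgfra. The list median after STZ was 0.13.

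Podocyte markers averaged 9.89, 9.90 and 9.88 in STZ knockouts against 10.04, 10.15 and 10.02 in STZ controls (difference -0.18, exact permutation p = 0.1), and differed by -0.44 at baseline (exact permutation p = 0.2). Of the 12, Thsd7a (-1.34, SE 0.19, adjusted p = 0.0298 in edgeR's quasi-likelihood test) and Cdkn1c (-0.77, SE 0.12, adjusted p = 0.0465) were lower in STZ knockouts than in STZ controls, and none was called at baseline. The list was mixed after STZ, with a median log2 fold change of -0.09. Clic3 (0.63, SE 0.20), Ptpro (0.43, SE 0.14), Nphs1 (0.28, SE 0.14) and Wt1 (0.15, SE 0.12) were positive there, and the remaining genes were negative. Over all genes 0.841% were called higher after STZ and 0.233% lower, and 0.230% in either direction at baseline. The 9 mesangial genes differed by 0.07 after STZ and -0.13 at baseline (exact permutation p = 0.6 and 0.3), with no gene called. The 7 smooth muscle and renin genes listed in both arms differed by 0.47 after STZ and -0.61 at baseline (exact permutation p = 0.3 and 0.1), and Tagln, at 733, 339 and 1580 CPM in STZ knockouts against 61.9, 65.9 and 66.8 CPM in STZ controls, was the 1 called after STZ. Over the 8 tested after STZ the median log2 fold change was only 0.05, from -0.38 for Ren1 to 3.77 for Tagln. At baseline the median was -0.41, and Tagln alone was positive (0.76, SE 0.41). Proximal tubule genes averaged 6.24, 8.81 and 9.25 in baseline knockouts against 6.93, 7.94 and 7.21 in baseline controls (exact permutation p = 0.5), and differed by 0.02 after STZ (exact permutation p = 1). Endothelial genes differed by -0.19 after STZ and -0.01 at baseline, macrophage genes by -0.09 and -0.04, parietal epithelial genes by -0.14 and 0.05, and genes of later tubule segments by -0.21 and 0.41, with exact permutation p from 0.4 to 1 and none called. Baseline knockout replicate 1, lowest in tubule genes, was the highest for Svep1, Frem1, Tnxb and Postn and the lowest for Crispld1, Pamr1 and Colec12. The part of these cell types in the member levels was not tested.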

How the data were processed

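Glomerular RNA-seq was available for 12 libraries. For each library the authors deposited a table of estimated counts by gene symbol, not scaled to depth, and the STZ tables list more genes than the baseline tables. Between 10.5% and 11.5% of values end in 0.5, so they were rounded, and 18 blank values were taken as 0. BWA and mm10 appear in the submitters' processing notes. The counting tool, annotation and strand handling are unstated in those notes and in the labels. After filterByExpr and TMM scaling, the quasi-likelihood test of edgeR 4.0.16 was run in R 4.3.3 (limma 3.58.1). P-values were adjusted by Benjamini-Hochberg over all genes, and an adjusted p under 0.05 was a call. Knockout and control were fitted within each arm, STZ and baseline within each genotype, and the interaction on all 12 libraries. Standard errors were derived from the F statistic. Marker means use log2 CPM with a prior count of 2. DESeq2 1.42.0, DESeq2 size factors, no filter, one fit of all libraries and leaving out each library were the alternatives. Sex (female above 10 CPM of Xist) or a mark in the baseline titles as a term were added after seeing the data. No 2 replicates agreed within sampling noise (chi-square per degree of freedom 42.0 to 352), and all were used. The steps were tested on simulated counts.

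The members and lists were chosen with earlier results of these data known. The text names all 8 members, Dach1, called genes of each list (up to 4 of smallest p), the 2 genes nearest to each member in profile (at a mean of at least 1 CPM, skipping predicted genes and clone names), and genes that overlap a member. Other relatives, such as Crispld2, Fras1, Frem2, Frem3, Npnt, Tnc, Tgfbi and Itga9, and the fibroblast and podocyte markers, were added after their values were seen. Each group held different mice, 3 in number, so precision is limited by the animals.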

Additional observations from a re-analysis of the deposited data

Results flagged for a closer look

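The knockout libraries of Postn lay on opposite sides of the controls in the 2 arms, with all 3 STZ knockouts above all 3 STZ controls (7.14 to 8.72 against 6.37 to 7.02 CPM), as for 8.62% of all genes, and all 3 baseline knockouts below all 3 baseline controls (9.29 to 11.3 against 18.2 to 20.1 CPM), as for 6.86%. Neither difference was called in edgeR's quasi-likelihood test, and that after STZ was small (0.24, SE 0.14). The knockout effect after STZ minus that at baseline was 1.17 on the log2 scale (SE 0.17). It did not pass in edgeR's quasi-likelihood test over all genes (adjusted p = 0.0974) and passed in DESeq2 (adjusted p = 6.22e-07). When single libraries were left out it ran from 1.09 to 1.26, with adjusted p-values up to 0.53 in edgeR's quasi-likelihood test. Postn was flagged for these opposite sides, and the members were chosen on the knockout effects. The p-values are therefore not independent of the choice and are only a description.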

How the results depend on the processing

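The knockout effects of all 8 genes kept their direction under every alternative tried in both arms, as did the interaction and the STZ effect in knockouts. In controls the STZ effect reversed 7 times, always below any call, when libraries were left out. Without STZ control replicate 1, Frem1 was at -0.04 and Angptl7 at -0.20. Without STZ control replicate 3, Svep1 was at -0.01. Without baseline control replicate 2, Svep1 was at -0.13, Frem1 at -0.03 and Angptl7 at -0.03. Without baseline control replicate 3, Pamr1 was at 0.07. Over single libraries left out, Pamr1 ran from -0.29 to 0.07, Svep1 from -0.13 to 0.37, Frem1 from -0.04 to 0.13 and Angptl7 from -0.20 to 0.40. Counts over all genes depended on the tool. DESeq2 called 220 genes for the knockout at baseline, 565 after STZ, 805 for STZ in knockouts, 410 for STZ in controls and 31 for the interaction, against 31, 175, 24, 31 and 1 in edgeR's quasi-likelihood test. One fit of all 12 libraries called 79 genes at baseline and 293 after STZ. With sex as a term, 10 genes were called at baseline, 63 after STZ, 9 for STZ in knockouts, 6 for STZ in controls and 0 for the interaction, with 0, 6, 0, 0 and 0 members. In that fit Frem1 was at -0.08 and Angptl7 at -0.09 for STZ in controls. After STZ the fit with sex gave the members the log2 fold changes of leaving out knockout replicate 2, the only female of that arm. With the S10 or S11 mark as a term, 60 genes and 2 members were called at baseline. DESeq2 size factors changed the interaction to 2 genes. Of the members, DESeq2 called 6 for the knockout at baseline, 5 for STZ in knockouts, 2 for STZ in controls and 3 for the interaction, and one fit called 6 at baseline. When single libraries were left out, the counts ran from 4 to 51 genes for the knockout at baseline, 40 to 109 after STZ, 1 to 8 for STZ in knockouts, 4 to 12 for STZ in controls and 0 to 2 for the interaction. Members called ran from 0 to 3, 4 to 6, 0 to 0, 0 to 1 and 0 to 0 in that order. The cause was not tested, beyond the smaller number of samples. No paired analysis was possible because the labels give no replicate numbers, and those used here follow the order of the accessions. With 3 mice a group, and fewer counts at baseline, small differences such as that of Postn after STZ were not resolved.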
